A study of Drosophila melanogaster with 64 samples.

Results

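A set of 35 genes of the 17606 in the count table was nearly exclusive to adult as against larval testes of Drosophila melanogaster. Only testes were measured, so levels of these genes in other tissues are not known here. The genes were chosen from the control stock alone: a mean of at least 20 CPM (the count over the library's total, scaled to 1000000) over its 4 adult libraries and under 1 CPM over its 4 larval libraries. In all 37 genes passed both limits, and scpr-A and scpr-B, which belong to a separately treated family, were left out. The larval limit took the set out of 5595 genes at 20 CPM or more in adult control testes. Stage differences in the control stock are therefore what chose the genes and are given only as a description, while the 7 translocation lines supplied libraries that the choice did not use.

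RNA was measured in 64 libraries of dissected testes from 8 lines, with 4 pools per line and stage. The sterile lines carried the male-sterile reciprocal translocations T(1;2) BM1, BM5, BM6, BM24 and BM46 between the X and chromosome 2, and the fertile lines carried T(1;2) BM4 and BM21. The reference was the irradiated parental stock without a translocation. Adults were 1 to 5 days old, with 20 testes per pool and the seminal vesicle removed. Larvae were late in the last larval instar (L3), with 15 testes per pool freed of fat body by enzyme digestion. Males of all 8 lines shared the X-linked duplication Dp(1;1)scV1, listed in the labels with the alleles y2, y+, sc+ and scV1 and with su(wa), wa, cv, v and f (y appears there as a Greek letter). Sterile translocations were kept with females that carry the FM7i balancer with the P{ActGFP}JMR3 transgene, and the fertile translocations and the parental stock with C(1)M4 compound-X females. Sterility and the way a line was kept therefore cannot be told apart. Each line stands for a single translocation, and the labels do not say whether its pools came from separate crosses, so p-values measure the spread between pools, which may be technical.

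The larval testis of the fly holds the stem cell niche, spermatogonia and spermatocytes, and the adult testis adds the later stages, in which spermatids elongate and become sperm. The adult organ also has a muscle sheath, pigment cells and a terminal epithelium that the larval gonad lacks or has not yet formed. A transcript seen in adult but not in larval testes can thus belong to late germ cells or to somatic cells of the adult organ. In bulk RNA, fewer cells of a type and less RNA per cell cannot be told apart.

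Depth was 20387 to 24650332 counts in adult libraries and 8961413 to 21275143 in L3 libraries. BM6 replicate 3 and BM24 replicates 2 and 3 of the adults had under 1000000 counts. They entered the tests but not the levels below, which rest on 3 adult libraries for BM6, 2 for BM24 and 4 for every other line (25 adult translocation libraries, 17 of sterile and 8 of fertile lines). Accessory gland transcripts, which encode proteins of the seminal fluid, were abundant in 7 adult libraries (mean log2 CPM over 3 for a list of 32 genes), namely BM21 replicate 4 and a pair of libraries each of BM1 (1, 4), BM4 (2, 3) and BM6 (1, 2). A BM46 library reached 5218 CPM summed over this list, but mean log2 CPM in BM46 was at most 1.44. It therefore stayed in the fits without libraries rich in accessory gland transcripts. None of the 35 genes was on the accessory gland list, nor on the lists for muscle, fat body, hemocytes, somatic cyst and hub cells, or gut and tubule. None was on the lists of postmeiotic cup and comet genes, spermatocyte-transcribed differentiation genes, sperm nuclear proteins or sperm leucylaminopeptidases. In parental L3 libraries these germline lists had median sums of 4412, 10671, 2988 and 21507 CPM, so the larval limit kept out their abundant genes. Absence from the lists therefore does not tell the cell type of the 35 genes.

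Most of the 35 genes are little studied. All 35 are protein coding at the same position in Ensembl BDGP6, but 27 had only a CG number in the count table, and 25 still have no other symbol in Ensembl. Their longest annotated products are short, with a median of 248 residues (42 to 2819), against 444 for 5464 protein-coding genes at 20 CPM or more in adult parental testes. Products under 150 residues made up 11 of the 35 (31.4%), against 10% of those genes. The right arm of chromosome 3 held 14 of the 35 (40%, against 24.4% of genes at 20 CPM or more). The X held 2, CG3713 and NAAT1 (5.71%, against 15.1%), and the left and right arms of chromosome 2 held 7 and 8. The left arm of chromosome 3 had 4, and chromosomes 4 and Y had none.

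Of the genes with a known role, NAAT1 encodes a nutrient amino acid transporter of the SLC6 family, and it was the only gene of the 19 in the SLC6 list to fall in the set. CG33281 belongs to the sugar transporters and CG7333 to the organic cation transporters. Tps1 encodes trehalose-6-phosphate synthase, which makes the precursor of the main blood sugar of insects. Tsp42Ed and Tsp42Eg are tetraspanins, membrane proteins encoded in a cluster of related genes. Tenectin, from tnc, is an extracellular matrix ligand of integrins, and Cpr92A is a cuticular protein. IM4 (Dso1 in Ensembl) is a short secreted peptide induced through the Toll immune pathway, and CG18067 (Bbd in Ensembl) is known from the same pathway. CG30090 is a serine protease, and Nplp2 a neuropeptide-like precursor. A further 5 genes, CG16898, CG10553, CG10513, CG31300 and CG10514, belong to the EcKL family, named for ecdysteroid kinases, which phosphorylate moulting hormones in other insects.

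Adult and larval levels lay far apart in every translocation line. Of the 35 genes, 34 had every one of the 25 adult translocation libraries above every one of the 28 L3 translocation libraries, against 6.85% of the 16531 genes with a count. The exception was CG13323, where adult BM21 libraries reached down to 0.947 CPM. Without a filter on low counts, edgeR's quasi-likelihood test called all 35 higher in adults in each of the 7 lines (Benjamini-Hochberg adjusted p under 0.05), where the share of all genes called higher was 33.0% in BM1, 29.6% in BM5, 26.9% in BM6, 26.7% in BM24, 29.6% in BM46, 30.0% in BM4 and 29.8% in BM21. With edgeR's filter the test kept 35 of the genes in BM1, BM5, BM46 and BM21, 34 in BM4, 21 in BM24 and 20 in BM6, and all that were kept were called higher. The shares of all genes called higher in these fits were 39.3%, 37.6%, 37.4%, 36.4%, 37.7%, 27.9% and 37.4%, in the same order. Genes silent in L3 pass that filter through their adult level, so these counts describe the fits and support nothing.

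Summed over 34 genes, without CG18628, the adult total was 2122 ± 265 CPM in BM1, 1373 ± 61.3 in BM5, 1211 ± 113 in BM6, 1152 ± 222 in BM24 and 1386 ± 71.4 in BM46 among the sterile lines (SD over libraries). The fertile totals were 1601 ± 127 in BM4 and 1555 ± 143 in BM21, and in the parental stock 1752 ± 156. The larval totals were between 7.17 CPM in BM4 and 12.6 CPM in BM1, against 6.74 CPM in the parental stock. Without CG18628, BM1 thus had the highest adult total of the 8 lines and the other sterile lines the lowest. With it, over all 35 genes, the order was different: the adult totals were 4642 CPM in BM1, 3069 in BM5, 2372 in BM6, 3875 in BM24, 3709 in BM46, 3945 in BM4 and 3239 in BM21, against 4817 CPM in the parental stock, which was then the highest.

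The adult limit of 20 CPM was met by 30 of the genes in BM1, 25 in BM5, 23 in BM6, 22 in BM24, 26 in BM46, 28 in BM4 and 28 in BM21, against all 35 in the parental stock by the choice. The larval limit was met by 32, 33, 31, 32, 32, 35 and 34 of the genes in the same lines. In all 7 lines together, 17 genes reached 20 CPM in adults, 29 stayed under 1 CPM in L3 and 13 did both. Since the genes were chosen for high values in parental adults, values below the parental stock in other lines follow in part from the choice: 9 genes were lower in all 7 lines, none was higher in all 7, and 27 had a median line below it. Just inside the adult limit were CG13323, Nplp2 and CG10514 with 20.8, 22.2 and 22.6 CPM in parental adults, and just outside it MFS9, CG31296 and pyd3 with 19.8, 19.7 and 19.7 CPM. Just inside the larval limit were CG18628, Tsp42Eg and CG18067 with 0.955, 0.718 and 0.664 CPM in parental L3, and just outside it CG5853, scpr-C and CG8665 with 1.05, 1.06 and 1.09 CPM.

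**Figure D1:**
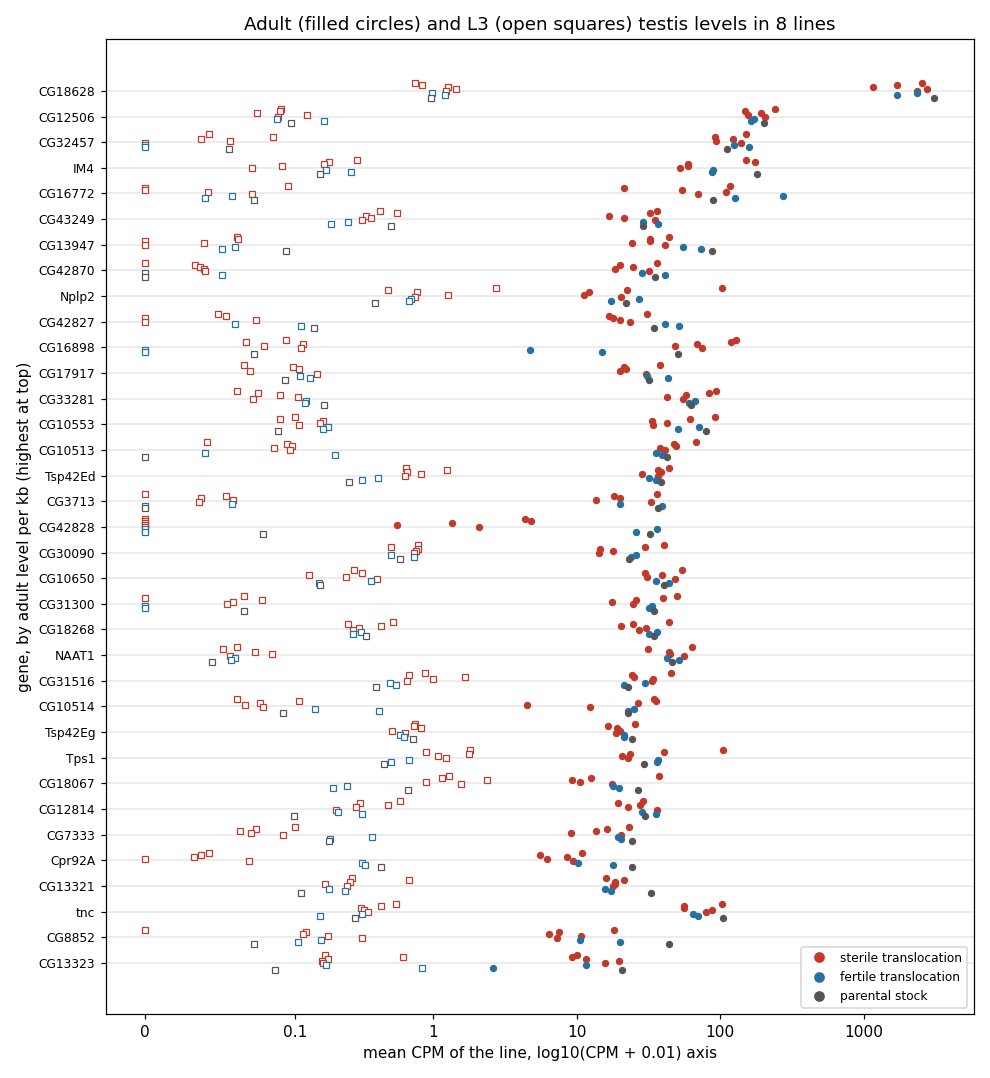
Mean CPM of each line (x axis, log10 of CPM + 0.01) for the 35 genes (y axis, by adult level per kilobase), with adult levels as filled circles and L3 levels as open squares. Adult and L3 marks stay apart in nearly every gene, with the low adult values of CG42828 in sterile lines, CG16898 in fertile lines and CG13323 in BM21 as exceptions to the general adult level.

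Per kilobase of gene, CG18628 stood far above the rest. It encodes a product of 63 residues from 3L, 10639740 to 10640136, in the coordinates of the count table. Its adult level was 6131 ± 1772 CPM per kilobase (mean and SD over the 25 adult translocation libraries, as for the other levels per kilobase of this and the next paragraph). In CPM it had 2520 ± 552 in BM1, 1698 ± 51.5 in BM5, 1161 ± 82.5 in BM6, 2723 ± 835 in BM24, 2324 ± 184 in BM46, 2344 ± 354 in BM4 and 1684 ± 391 in BM21, against 3066 ± 729 in the parental stock. Its L3 libraries had 0.437 to 2.01 CPM over the 28 of the translocation lines, so the gene also reached 1 CPM in L3 means of several lines. The adult minus L3 change in CG18628 was a log2 of 12.21 ± 0.24 in BM1, 11.48 ± 0.14 in BM5, 10.23 ± 0.25 in BM6, 10.83 ± 0.52 in BM24 and 11.35 ± 0.12 in BM46 (SE). Fertile lines had 11.71 ± 0.19 in BM4 and 10.92 ± 0.26 in BM21. The largest edgeR adjusted p of these 7 was 9.87e-09.

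CG12506 followed with 391 CPM per kilobase, and its neighbour CG13947, which starts 5155 bases after its end on 2L, had 93.6. Adult line means of CG12506 lay between 148 ± 13.1 CPM in BM5 and 242 ± 15.2 CPM in BM1, with 203 ± 21.0 CPM in the parental stock, and BM1 was higher than BM4 and BM21 by a log2 of 0.71 (edgeR adjusted p = 7.43e-08). CG32457 (207 CPM per kilobase), IM4 (131), CG16772 (103), CG43249 (95.4), CG42870 (80.9), Nplp2 (53.8), CG42827 (53.7), CG16898 (50.3) and CG17917 (43.2) completed the 12 highest. IM4, the Toll-induced peptide, had 150, 110, 173 and 165 CPM in adult BM1 and 180, 130, 216 and 172 CPM in adult BM5. In BM46 it had 51.2, 47.4, 59.0 and 52.2 CPM, against 63.7 to 117 CPM in the 8 fertile libraries and 144 to 211 CPM in the parental stock. In BM5 all libraries and in BM1 all but the lowest lay above every fertile library, and every BM46 library lay below them.

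The other genes had modest adult levels, given here as the lowest and highest line mean of the 7 translocation lines. Among the transporters, NAAT1 had 31.5 to 63.8 CPM against 45.7 in the parental stock, CG33281 had 42.7 to 92.5 against 62.5, and CG7333 had 9.20 to 23.1 against 24.3. The tetraspanin genes were narrow in range, with 28.7 to 44.1 CPM against 38.8 for Tsp42Ed and 16.6 to 25.3 against 24.3 for Tsp42Eg. The matrix gene tnc had 55.6 to 103 CPM against 105, and the cuticle gene Cpr92A had 5.59 to 17.9 CPM against 24.3. The Toll pathway gene CG18067 had 9.32 to 37.6 CPM against 26.9, and the protease gene CG30090 had 14.2 to 40.6 against 23.2. Among genes without a role named here, CG8852 had 6.44 to 19.9 CPM against 43.7, and CG13321 had 15.8 to 21.2 CPM against 33.1. CG8852, CG13321, Cpr92A and tnc were thus among those whose translocation lines all lay below the parental stock.

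CG10650 (30.0 to 54.0 CPM against 40.7), CG18268 (20.3 to 43.7 against 34.4), CG12814 (19.3 to 36.1 against 30.0) and CG3713 (13.7 to 39.2 against 36.9) lay on both sides of the parental stock. So did CG43249 (16.9 to 37.1 against 29.0), CG42870 (18.6 to 41.4 against 35.3), CG17917 (20.2 to 43.1 against 31.8) and CG31516 (21.5 to 45.6 against 22.8).

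Several of the genes are neighbours: 11 of the 35 lie within 20000 bases of another. Besides CG12506 and CG13947, these are Tsp42Ed and Tsp42Eg (17171 bases apart), Cpr92A and CG7333 (1679), CG42827 and CG42828 (102), and the EcKL genes CG10513, CG10514 and CG31300 (1214 and 3773). CG8852, Tps1 and CG31516 overlap Spindly, CG3652 and aux on the other strand, and CG3713 overlaps CG43867 on its own strand. The strand setting of the counting is unknown here, so the counts of these 4 genes are uncertain.

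The EcKL genes sit mostly in a single run. On 3R, from 25270209 to 25331203, 26 EcKL genes lie within 61.0 kb that hold no other gene, and 4 of the 5 EcKL genes of the set are among them. CG16898 lies elsewhere, on 2R from 20003620 to 20005003. As the mean of the 7 translocation line means, adult levels were 38.2 CPM per kilobase for CG10553, 33.3 for CG10513, 21.6 for CG31300 and 17.0 for CG10514, against 0.0929, 0.0603, 0.0146 and 0.0885 in L3. They ranked 3, 4, 6 and 7 of the 51 EcKL genes by adult level per kilobase, and CG16898 ranked 2. The highest EcKL gene, CG31099, lies in the same run and is outside the set, since it had 108 CPM per kilobase in adults and 58.0 in L3. Of the 51 genes 21 had under 1 CPM per kilobase in adults. Of these, CG11889 and CG11891 share the same start and end and were listed at 0 in every library, and whether reads of such overlapping genes could be counted is not known.

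Of the 46 EcKL genes outside the set, 21 to 34 passed the filter of the stage test, depending on the line. Among these, 28 of 34 were higher in adults and 3 lower in BM1, 22 of 28 and 1 in BM5, 16 of 23 and 3 in BM6, 10 of 21 and 3 in BM24, and 14 of 25 and 4 in BM46. Among the fertile lines these counts were 22 of 30 and 5 in BM4, and 20 of 28 and 3 in BM21 (edgeR adjusted p under 0.05). Of all genes tested in these fits, 27.9% (BM24) to 39.3% (BM1) were higher in adults and 38.5% (BM21) to 41.5% (BM46) lower. Genes near 0 in L3 pass the filter through their adult level, so these counts, too, describe the fits and support nothing about the family. CG10513 and CG10514 are adjacent genes of the same family and length, and reads could be split between similar copies, so their single values are uncertain.

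**Figure D2:**
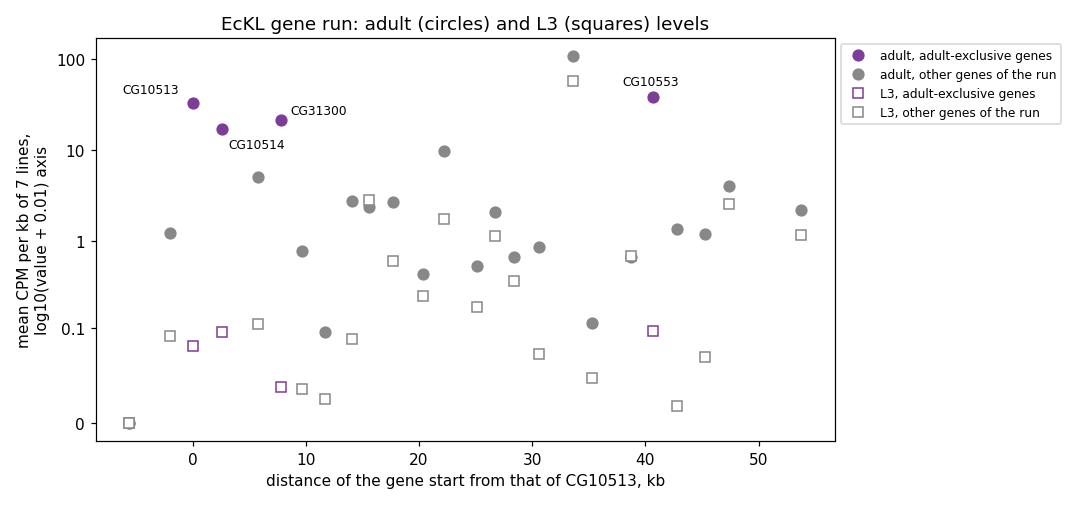
Mean CPM per kilobase of the 7 translocation lines (y axis, log10 of value + 0.01) of the 26 EcKL genes of the 3R run, against the distance of each gene's start from that of CG10513 in kilobases (x axis). Circles are adult and squares L3 levels, and the 4 labelled genes of the set combine an adult level of 17.0 or more with an L3 level under 0.1, while CG31099 is high at both stages.

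Among adult lines the set had a wider spread than other genes past the same adult limit, given here as a description. The genes were not matched for level above that limit, and the median of the set in parental adults was 34.7 CPM. The highest line mean over the lowest, across the 7 translocation lines, had a median of 2.51 for the 35 genes, against 1.47 for the other 5560 genes at 20 CPM or more in parental adults. It was 2-fold or more for 26 of the 35 (74.3%), against 9.84%, and 5-fold or more for 7 (20%), against 0.540%. Those 7 were CG42828 (65.5-fold), CG16898 (27.3), CG16772 (12.7), Nplp2 (9.20), CG10514 (7.92), CG13323 (7.52) and Tps1 (5.06). BM1 was the highest line for 18 genes and BM21 for 9, and BM24 was the lowest for 12, BM5 for 10 and BM6 for 6.

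CG42828, whose 89-residue product has no role named here, was low in sterile lines. Its adult libraries had 1.74, 1.66, 4.90 and 9.08 CPM in BM1, 0.801, 4.50, 9.09 and 4.70 in BM5, 1.44, 1.33 and 1.29 in BM6, 0.324 and 0.774 in BM24, and 1.44, 4.35, 0.789 and 1.73 in BM46. The fertile libraries had 26.4, 42.7, 53.7 and 21.0 CPM in BM4 and 19.3, 30.5, 28.3 and 25.6 CPM in BM21, and the parental stock had 54.5, 21.3, 29.5 and 24.2 CPM. No sterile library of CG42828 reached the lowest fertile or parental one. BM24, at a mean of 0.549 CPM, was the only case in which an adult line fell under 1 CPM for any of the 35 genes.

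Against the mean of BM4 and BM21, CG42828 fell by 2.65 ± 0.46 in BM1, 2.54 ± 0.46 in BM5, 4.38 ± 0.60 in BM6, 5.76 ± 0.80 in BM24 and 3.77 ± 0.51 in BM46 on the log2 scale (SE), with edgeR adjusted p of 3.67e-05, 0.000118, 2.7e-06, 7.37e-06 and 2.28e-06. These contrasts share the 8 fertile libraries. With a line as the replicate, the 5 sterile against the 2 fertile lines differed by a log2 of −3.42 ± 0.67 and the edgeR adjusted p of 0.0655 missed the threshold. It was 0.0375 without BM24 and 0.0416 without libraries rich in accessory gland transcripts. Of 15 alternatives to this class test 5 passed, among them a fit with pools as replicates, and the edgeR adjusted p reached 0.375. In L3, CG42828 had no count in any of the 28 translocation libraries, which together hold 446333881 counts and allow a level of up to 0.00672 CPM. The limit takes 3 counts and covers counting error only.

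CG42827, which ends 102 bases before CG42828 on the same strand of 3R (23372924 to 23373600), was also lower in sterile lines, by less. Its adult libraries had 14.7 to 35.2 CPM in sterile lines (median 20.9) against 33.6 to 57.3 CPM in fertile lines (median 44.9), and the ranges met only at the upper BM1 and lower BM4 libraries. The log2 change against BM4 and BM21 was −0.40 ± 0.15 in BM1, −1.33 ± 0.16 in BM5, −1.25 ± 0.18 in BM6, −1.19 ± 0.20 in BM24 and −0.87 ± 0.16 in BM46, all with an edgeR adjusted p of 0.03 or less. The BM1 call was lost without BM1 replicate 1 (−0.35, adjusted p = 0.0808) or BM1 replicate 2 (−0.38, adjusted p = 0.0626), and against BM4 alone (−0.21, adjusted p = 0.331). Between classes the change was −0.99 ± 0.24, with an adjusted p of 0.116, and 0.0302 without BM1. Of 15 alternatives to this class test 3 passed, and the edgeR adjusted p reached 0.411.

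CG16898, the EcKL gene on 2R, had the opposite order. It had 143, 100, 138 and 133 CPM in adult BM1, 107, 113, 105 and 149 in BM5, 68.8, 75.9 and 60.9 in BM6, 40.8 and 56.2 in BM24, and 65.7, 70.6, 76.4 and 83.8 in BM46. Fertile libraries had 6.30, 0.352, 10.4 and 1.8 CPM in BM4 and 9.47, 18.5, 14.1 and 17.9 CPM in BM21. The parental stock, with 52.6, 81.0, 45.3 and 24.9 CPM, lay above every library of BM4 and BM21 and below every library of BM1 and BM5. All 17 sterile libraries were above all 8 libraries of BM4 and BM21, whereas parental libraries overlapped those of BM6, BM24 and BM46.

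CG16898 rose in each sterile line against BM4 and BM21, by a log2 of 4.16 ± 0.35 in BM1, 3.99 ± 0.35 in BM5, 3.17 ± 0.37 in BM6, 2.47 ± 0.40 in BM24 and 3.29 ± 0.35 in BM46, with edgeR adjusted p from 7.8e-10 to 5.21e-05. Library names start with a letter (D for adult BM1, BM4 and BM5, E for BM6, BM21 and BM24, and F for BM46 alone). L3 libraries have A, B or C, so stage and letter cannot be told apart within a translocation line. What the letter stands for is not stated in the sources used here. Against BM21 alone, which has the letter of BM24, the change in BM24 was 1.57. BM4 was lower than BM21 by a log2 of −1.81 ± 0.46 (edgeR adjusted p = 0.0123), a call lost without BM4 replicate 4 (−1.54, adjusted p = 0.0611). With lines as replicates the class change was 3.33 ± 0.67 (edgeR adjusted p = 0.0704, and 0.0376 without libraries rich in accessory gland transcripts), and 1.76 when the parental stock was counted with the fertile lines. Of 15 alternatives to this class test 3 passed, and the edgeR adjusted p reached 0.313.

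**Figure D3:**
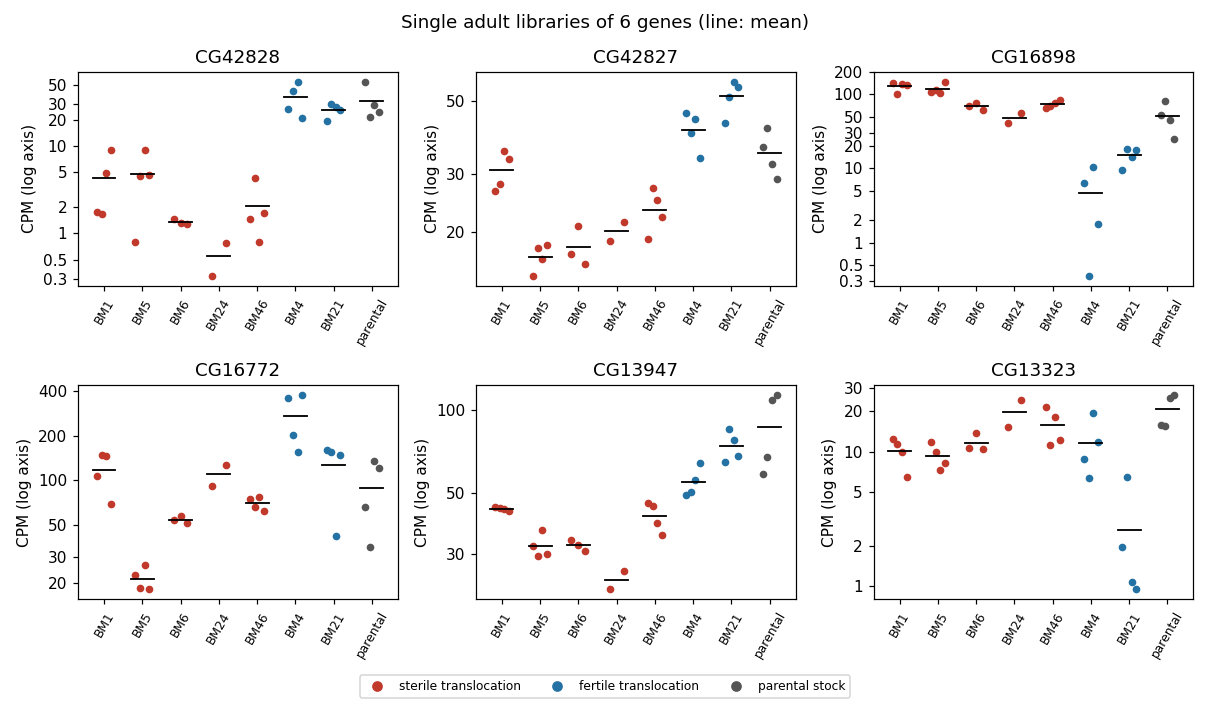
Adult CPM (y axis, log scale) of single libraries by line (x axis) for 6 genes, with points for libraries of at least 1000000 counts and a bar for their mean. CG42828 and CG13947 lie lower in every sterile library than in every BM4 and BM21 library, CG16898 lies higher, and CG42827, CG16772 and CG13323 overlap.

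CG13947, a 119-residue protein next to CG12506, was lower in sterile libraries without overlap. They had 22.5 to 46.1 CPM (median 35.4), against 49.3 to 84.8 CPM (median 64.5) in BM4 and BM21 and 58.7 to 113 CPM in the parental stock. Its neighbour CG12506 had 140 to 256 CPM (median 193) in sterile libraries against 147 to 181 CPM (median 170) in fertile ones, which overlap. CG13947 fell by 0.36 ± 0.11 in BM1, 0.86 ± 0.11 in BM5, 0.88 ± 0.12 in BM6, 1.33 ± 0.14 in BM24 and 0.52 ± 0.11 in BM46 (log2 ± SE, largest edgeR adjusted p 0.00624). Against BM4 alone the BM1 change was −0.12 (adjusted p = 0.419). Between classes the value was −0.78 ± 0.24 (adjusted p = 0.182). Over all 16322 genes with a count, 1.38% had every sterile library above every BM4 and BM21 library and 3.01% had every sterile library below. In the set it was CG16898 above, and CG42828 and CG13947 below.

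CG16772, another gene without a known role, ran from 18.2 CPM in BM5 to 380 CPM in BM4 among adult libraries. BM5 had 22.6, 18.7, 26.5 and 18.2 CPM, BM6 53.6, 56.7 and 51.2, and BM46 74.2, 65.5, 76.5 and 61.9. BM1 had 107, 148, 146 and 69.0 CPM and BM24 91.1 and 128. The fertile lines had 358, 202, 156 and 380 CPM in BM4 and 160, 155, 41.5 and 148 in BM21, and the parental stock 65.6, 35.1, 135 and 120. BM5 lay below every fertile library, and the other sterile lines overlapped them.

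CG16772 fell by 2.99 ± 0.32 in BM5, 1.70 ± 0.33 in BM6 and 1.32 ± 0.29 in BM46 on the log2 scale (edgeR adjusted p = 5.99e-08, 0.000236 and 0.000915), and BM1 and BM24 did not pass. BM4 was higher than BM21 by 1.08 ± 0.32 (adjusted p = 0.0323), which was lost without BM4 replicate 1 (0.93, adjusted p = 0.105), BM4 replicate 4 (0.89, adjusted p = 0.137) or BM21 replicate 3 (0.81, adjusted p = 0.0794). The class value was −1.36 ± 0.56 (adjusted p = 0.284), and −0.73 without BM4.

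CG13323 was lowest in BM21. BM21 libraries had 1.97, 6.54, 1.07 and 0.947 CPM, against 8.79, 6.43, 19.4 and 11.7 in BM4. BM1 had 6.49 to 12.4 CPM, BM5 7.34 to 11.9, BM6 10.5 to 13.8, BM24 15.3 and 24.2, BM46 11.3 to 21.5, and the parental stock 15.5 to 26.6. BM4 was higher than BM21 by a log2 of 2.09 ± 0.42 (edgeR adjusted p = 0.0014). CG13323 was called higher in all 5 sterile lines against the mean of BM4 and BM21, by 1.08 ± 0.33 in BM1, 0.91 ± 0.34 in BM5, 1.21 ± 0.35 in BM6, 1.92 ± 0.38 in BM24 and 1.64 ± 0.33 in BM46. Against BM4 alone, which has the same first letter of the library name, the change was 0.03 (adjusted p = 0.951) in BM1 and −0.14 (adjusted p = 0.822) in BM5. Against BM21 it was 2.25 in BM6 and 2.96 in BM24. The BM5 call (adjusted p = 0.043) was lost without any of its own 4 libraries, BM4 replicates 1, 2 or 4, or BM21 replicates 1, 3 or 4, with values between 0.74 and 0.98. The BM6 call (adjusted p = 0.0103) was lost without BM6 replicate 2 (1.06, adjusted p = 0.0631).

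BM1 was the line in which most of the set was higher. Against BM4 and BM21, 26 of the 35 genes rose and 3 fell in adult BM1, where 28.9% of 12627 tested genes rose and 23.7% fell, and the median log2 change was 0.56 for the set and 0.05 for all genes tested. Besides CG16898, the largest rises were in Nplp2 (2.43 ± 0.29, edgeR adjusted p = 1.92e-07), Tps1 (1.72 ± 0.30, adjusted p = 4.53e-05), CG18067 (1.18 ± 0.22), CG13323, CG10513 (1.04 ± 0.27), CG31516 (1.03 ± 0.12) and IM4 (0.94 ± 0.18). Nplp2 had 43.2, 62.5, 202 and 105 CPM in BM1 against 10.2 to 41.3 CPM in BM4 and BM21 and 15.8 to 29.3 CPM in the parental stock, without overlap. Tps1 had 63.3, 51.6, 239 and 65.0 CPM in BM1 against 24.2 to 66.4 CPM in the fertile libraries, which overlap, and without BM1 replicate 3 the change was 0.87.

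Transcripts of other tissues also differed in this line, as in the other sterile lines below. In BM1, 24 of 32 accessory gland, 20 of 24 muscle, 9 of 10 hemocyte, 6 of 11 gut and tubule, 5 of 16 somatic cyst and hub and 4 of 11 fat body genes tested were called higher, and 2 cyst and hub genes lower. Their part in the BM1 values was not tested. Without the libraries rich in accessory gland transcripts, 22 genes of the set rose and 2 fell in BM1. That fit keeps BM1 replicates 2 and 3, and its share of all genes is not given. Its counts therefore do not bear on the part of these tissues.

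In BM5, BM6 and BM24 more genes of the set fell than rose. BM5 had 6 higher and 13 lower (16.3% and 15.5% of all genes tested), with a median of −0.15 against −0.02 for all genes. Besides CG16898 and CG13323, IM4 (1.11 ± 0.18, edgeR adjusted p = 3.28e-05), the sugar transporter CG33281 (0.52 ± 0.16), CG13321 (0.47 ± 0.12) and the EcKL gene CG31300 (0.40 ± 0.15) were the higher ones. The CG33281 call was lost without BM5 replicate 4 (0.40, adjusted p = 0.0981), and that of CG31300 (adjusted p = 0.0453) without any of 10 single libraries, with values from 0.31 to 0.41. Lower besides those already described were Cpr92A (−1.15 ± 0.20), CG8852 (−0.83 ± 0.19), CG42870 (−0.65 ± 0.16), CG17917 (−0.64 ± 0.09), and by less CG3713, NAAT1, CG32457, CG18268 and CG12814. Against BM4 alone 8 genes were lower in BM5, and Cpr92A had −0.72, CG17917 −0.36, CG8852 −0.34 (adjusted p = 0.228) and CG42870 −0.35 (adjusted p = 0.151). In the same contrast 12 of 24 muscle, 3 of 11 gut and tubule, 3 of 10 hemocyte, 2 of 32 accessory gland, 2 of 11 fat body and 1 of 16 cyst and hub genes were higher, and 2 accessory gland genes, 1 muscle gene, 1 gut and tubule gene and 1 cyst and hub gene were lower.

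BM6 had 3 genes higher and 15 lower (17.3% and 15.3% of all genes tested), with a median of −0.38 against −0.00. Also higher was CG12506 (0.28 ± 0.09, edgeR adjusted p = 0.0156), a call lost without BM6 replicate 1, 2 or 4, BM4 replicate 2 or BM21 replicate 1 (0.21 to 0.24). Lower were CG8852 (−1.05 ± 0.21), the Toll pathway gene CG18067 (−0.89 ± 0.27), CG43249 (−0.85 ± 0.16) and CG18628 (−0.80 ± 0.23, adjusted p = 0.00991) among others. The CG18067 call was lost without BM6 replicate 4 (−0.61, adjusted p = 0.111), and the change was −1.58 without the libraries rich in accessory gland transcripts. Without those libraries CG18628 was −0.99 (adjusted p = 0.0752), and against BM21 alone −0.59 (adjusted p = 0.108). The fit without those libraries keeps only replicate 4 of BM6 and replicate 3, which had 20387 counts. Its BM6 values thus rest in effect on a single library. Of the other tissues, 9 of 10 hemocyte, 6 of 11 gut and tubule, 6 of 24 muscle, 3 of 16 cyst and hub, 1 of 11 fat body and 1 of 32 accessory gland genes were higher in BM6, and 1 muscle and 1 cyst and hub gene lower.

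BM24 had 3 genes higher and 14 lower (10% and 8.11% of all genes tested), with a median of −0.60 against −0.03. The transporter CG7333 had 9.20 ± 0.285 CPM in BM24 (n = 2) against 19.3 ± 1.62 in BM4 and 20.5 ± 1.58 in BM21 (n = 4 each), a log2 change of −1.10 ± 0.14 (edgeR adjusted p = 1.09e-06). CG3713 (−0.98 ± 0.14, and −1.50 against BM21 alone), CG42870 (−0.93 ± 0.20) and Cpr92A (−0.94 ± 0.25) also fell, the last not without BM24 replicate 1 (−0.94, adjusted p = 0.0761) or BM24 replicate 4 (−0.71, adjusted p = 0.157). The EcKL gene CG10514 had 3.24 and 5.72 CPM in the deeper BM24 libraries against 8.11 to 73.3 CPM in fertile ones, a change of −2.35 ± 0.70 (adjusted p = 0.0204), lost without BM24 replicate 1 (−2.05, adjusted p = 0.16) or BM24 replicate 4 (−2.81, adjusted p = 0.0673). CG31516 (0.44 ± 0.15, adjusted p = 0.0425) lost its call without either deeper BM24 library (0.46 and 0.31) or any of 6 fertile libraries (0.38 to 0.44). In BM24, 7 of 11 fat body, 4 of 10 hemocyte, 4 of 24 muscle, 2 of 16 cyst and hub and 1 of 11 gut and tubule genes were higher, 2 cyst and hub genes were lower, and no accessory gland gene was called.

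BM46 had 8 genes higher and 8 lower (17.1% and 15.9% of all genes tested), with a median of 0.01 for the set and for all genes. Higher besides CG16898 and CG13323 were CG31516 (0.50 ± 0.12), CG10650 (0.40 ± 0.10), CG12506 (0.40 ± 0.08), NAAT1 (0.35 ± 0.11), CG3713 (0.34 ± 0.10) and CG12814 (0.27 ± 0.10). The NAAT1, CG3713 and CG12814 calls were each lost without BM46 replicate 2 (0.30, 0.28 and 0.24). NAAT1 also lost it without BM46 replicate 1 (0.23), BM4 replicate 2 (0.28) or BM21 replicate 2 (0.28), and CG12814 without any of 8 other libraries (0.14 to 0.28). Lower were CG8852 (−0.90 ± 0.19), the EcKL gene CG10553 (−0.71 ± 0.21), the protease gene CG30090 (−0.70 ± 0.21) and IM4 (−0.64 ± 0.20, edgeR adjusted p = 0.0129), beside those described above. In BM46, 13 of 24 muscle, 7 of 11 fat body, 3 of 11 gut and tubule, 3 of 16 cyst and hub, 4 of 32 accessory gland and 1 of 10 hemocyte genes were higher, and 10 accessory gland genes and 1 muscle gene were lower. The part of these tissues in the BM5, BM6, BM24 and BM46 values was not tested.

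The fertile lines differed from each other as well. BM4 against BM21 had 2 genes higher and 9 lower (3.06% and 4.84% of all genes tested), with a median of −0.15 against −0.01. CG3713 fell by 1.03 ± 0.12 (edgeR adjusted p = 5.31e-07), CG8852 by 0.97 ± 0.20, Cpr92A by 0.86 ± 0.21, CG42870 by 0.60 ± 0.18 and CG17917 by 0.55 ± 0.10 on the log2 scale. DESeq2 called 1 gene lower. Without the libraries rich in accessory gland transcripts 5 genes were lower, with CG8852 at −0.74 (adjusted p = 0.106) and Cpr92A at −0.79 (adjusted p = 0.0664). The CG42870 call was lost without BM4 replicate 1, 2 or 4 or BM21 replicate 2 or 3 (−0.57 to −0.47).

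Between sterile and fertile lines, with the line as the replicate, edgeR called none of the 35 genes (5 lines against 2, with 0.717% of 13812 tested genes higher and 0.666% lower in sterile lines). At an unadjusted p under 0.05 it was 1 higher and 4 lower, and DESeq2 called 1 higher and 3 lower. Shares of all genes are not given for the unadjusted and DESeq2 counts, so neither is read as a result about the set. The set's median log2 change was 0.04 and that of all genes 0.02. Summed transcripts of other tissues had different, mostly overlapping ranges in the same groups of libraries. The gut and tubule list summed to 113 to 267 CPM in sterile libraries, 67.2 to 139 CPM in BM4 and BM21 and 9.09 to 33.4 CPM in the parental stock. A sum can rest on few genes. Mean log2 CPM of this list overlapped between the groups, with 0.59 (BM46) to 2.48 (BM6) in sterile libraries. It was 0.27 to 1.35 in BM4 and BM21 and −0.30 to 0.61 in the parental stock. For fat body the sum was 155 to 1065, 136 to 227 and 126 to 225 CPM, and for muscle 1706 to 2333, 1661 to 1911 and 1759 to 2055 CPM. The accessory gland list summed to 133 to 10614, 145 to 1927 and 142 to 179 CPM, and the hemocyte list to 166 to 332, 142 to 216 and 193 to 312 CPM. Their part in these results was not tested.

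**Figure D4:**
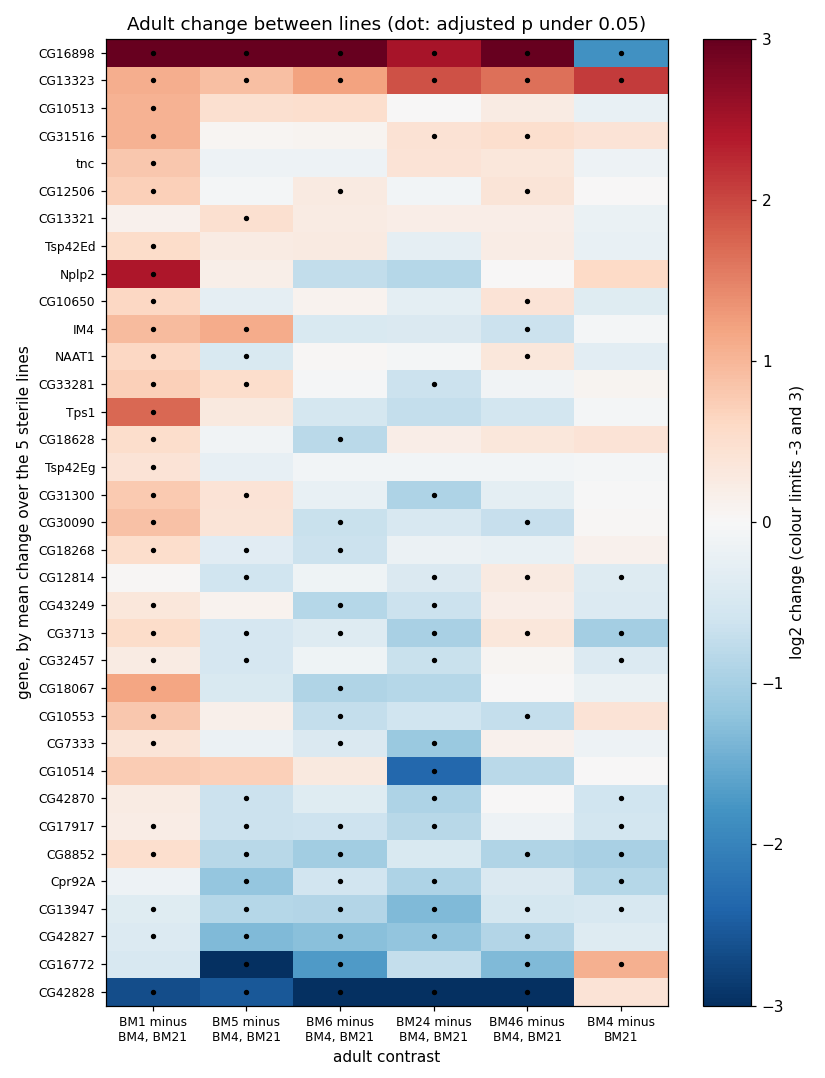
Log2 change (colour) of the 35 genes (rows) in the adult contrasts of the 5 sterile lines against the mean of BM4 and BM21 and of BM4 against BM21 (columns), with a dot for an edgeR adjusted p under 0.05. The BM1 column has most of the higher calls, 26, and CG16898 at the top and CG42828 at the bottom keep their sign in the 5 sterile columns, which share the fertile libraries.

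In larval testes, 6 of the 35 genes had a mean of 1 CPM or more in some translocation line. Tps1, Nplp2, CG18067, CG31516, Tsp42Ed and CG18628 did so, each through low values. CG18067 had 0.336 to 4.45 CPM (median 1.16) in the 20 sterile L3 libraries, 0 to 0.569 CPM (median 0.199) in the 8 of BM4 and BM21 and 0.535 to 0.876 CPM in the parental stock. CG31516 had 0.491 to 1.97 CPM (median 0.805) in sterile, 0.256 to 0.861 CPM (median 0.470) in fertile and 0.112 to 0.536 CPM in parental libraries. Tps1 had 0.157 to 3.98 CPM (median 1.10), 0.323 to 1.27 CPM (median 0.414) and 0.0766 to 0.741 CPM in the same groups. The groups overlapped in all 3 genes, and differences between L3 lines were not tested.

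Nplp2 reached 8.94 CPM in a single L3 library, BM1 replicate 3, against 0.243 to 2.57 CPM in the other sterile, 0.382 to 1.02 CPM in fertile and 0.230 to 0.458 CPM in parental libraries. The fat body list, whose tissue was removed by digestion, summed to 259 to 2610 CPM (median 1196) in sterile L3 libraries, 129 to 745 CPM (median 196) in fertile and 218 to 373 CPM in parental ones. Its part in the L3 values was not tested.

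**Figure D5:**
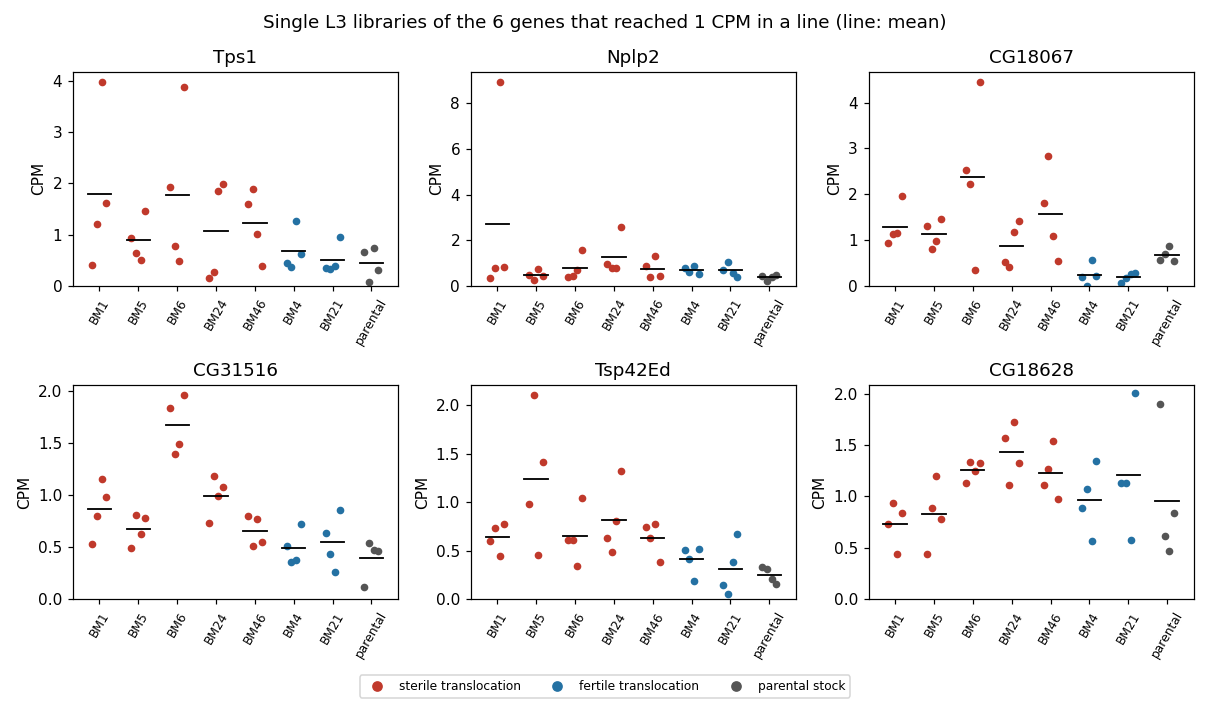
L3 CPM (y axis, linear from 0) of single libraries by line (x axis) for the 6 genes that reached a mean of 1 CPM in a translocation line, with a bar for the mean. Values stay under 5 CPM apart from Nplp2 in BM1 replicate 3, at 8.94 CPM.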

How the data were processed

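The authors deposited 1 table of whole-number read counts per gene without normalization. Per the submitters' processing notes, it came from bcl2fastq 1.8, cutadapt, HISAT2 2.1.0 and featureCounts 1.6.1. The genome build and the strand setting were not given in the sources used. Per the labels' protocols, strand-keeping poly(A) libraries were read as single ends.

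The genes and lists were chosen with earlier results of these data known. CPM is the count over the library total. Tests used edgeR's quasi-likelihood test (version 4.0.16, R 4.3.3) with TMM factors, the filterByExpr filter and Benjamini-Hochberg adjustment over all genes tested (threshold 0.05) and left out the parental stock, which chose the genes: adult against L3 within a line (8 libraries), each sterile line against the mean of BM4 and BM21 (28 adult libraries), and summed libraries per line for sterility. DESeq2 1.42.0, other scalings, filters and left-out libraries were alternatives. On simulated counts the BM5 adult fit recovered 88.3% of 2-fold changes and the class fit 34.4%. Text names the 12 highest genes per kilobase, up to 8 called genes each way per contrast, and genes crossing 1 CPM. Sequences were not used here.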

Additional observations from a re-analysis of the deposited data

Results flagged for a closer look

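The 35 genes were screened in the 6 lines with 4 adult libraries of at least 1000000 counts, 210 groups in all, and in 13 groups a single value lay far from the other 3. Chance flags about 1 in 20 groups. In BM4 replicate 3, CG10514 had 73.3 CPM against 8.11 to 9.88 CPM in the other BM4 libraries, CG10513 had 75.4 CPM against 21.8 to 22.6, Tps1 had 66.4 CPM against 24.2 to 29.4 and CG17917 had 35.2 CPM against 28.7 to 29.7. In BM1 replicate 3, Tps1 had 239 CPM against 51.6 to 65.0. In BM1 replicate 4, CG7333 had 25.5 CPM against 22.1 to 22.3 and tnc had 77.0 CPM against 111 to 113, and in BM1 replicate 1, CG32457 had 135 CPM against 154 to 156. In BM21 replicate 3, CG16772 had 41.5 CPM against 148 to 160. In BM46, CG18067 had 26.02 CPM in replicate 1 against 14.5 to 15.5 and CG42870 had 36.3 CPM in replicate 2 against 30.1 to 31.1. CG12506 had 168 CPM in BM5 replicate 3 against 140 to 143, and CG7333 had 27.1 CPM in parental replicate 1 against 23.0 to 23.6.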

How the results depend on the processing

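Calls of adult-high levels rose to 35 genes in BM6 (no filter, no library under 1000000 counts, or a joint fit of all 56 translocation libraries) and in BM24 to 35 (no filter or the joint fit) and 34 (no shallow library). DESeq2 gave 1 lower gene in BM1, 3 higher in BM5, 1 higher in BM6, 3 higher in BM46, 1 lower in BM4 against BM21, and 1 higher and 3 lower between classes. Counts in this paragraph are those that moved by more than 1.5-fold from the main edgeR fit, or rose from none. DESeq2 line counts not listed, such as genes higher in BM1, were left out and not absent. Shares of all genes are not given for these alternatives. Without libraries rich in accessory gland transcripts edgeR gave 1 higher in BM6, 5 lower in BM4 against BM21, and 1 higher and 1 lower between classes. In that fit BM6 keeps only replicate 4 and the shallow replicate 3. With the parental stock among fertile lines 1 gene was lower between classes. Against the fertile line whose library names share its first letter, an alternative chosen after seeing the data, BM5 had 8 lower, and its CG13323 change turned to −0.14. The causes of these shifts were not tested.

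Leaving out each library gave, for genes higher and lower, 21 to 25 and 2 to 4 in BM1, 3 to 8 and 13 to 15 in BM5, 1 to 5 and 10 to 17 in BM6, 2 to 4 and 9 to 16 in BM24, 5 to 8 and 8 to 10 in BM46, and 1 to 3 and 5 to 9 in BM4 against BM21. Leaving out each line gave 0 and 0 to 1 between classes. Adult-high calls were 20 to 35 in BM6, 20 to 33 in BM24, 34 to 35 in BM4 and 35 elsewhere. Of 1394 alternatives over 73 named gene results, 136 kept the sign but lacked the call, and 1 reversed the sign, also without a call. Of the 73 results, 44 never lost the call.

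Replicate numbers were not taken to pair samples: same-numbered adult and L3 libraries correlated at −0.110 to 0.103 and adult lines at −0.666 to 0.505. Every pair was over 0.1 for adult BM1 and BM21 (0.147 to 0.505) and BM5 and BM21 (0.151 to 0.322), but BM1 and BM4 had −0.666 to −0.380. With a replicate block the counts were 23 and 3 in BM1, 6 and 13 in BM5, 3 and 14 in BM6, 2 and 13 in BM24, 8 and 8 in BM46, and 2 and 8 in BM4 against BM21; between classes, over single libraries, 6 and 11. That class fit takes the pools of a line as replicates of sterility. With the line as the replicate edgeR called none. Adult-high calls were as without the block. Among genes named with a value, the calls of CG10514 and CG31516 in BM24 (adjusted p = 0.0575 and 0.0969) and CG32457 in BM4 against BM21 (0.0808) were lost under the block. Scaling by library size alone shifted the median of all genes by −0.51 to −0.30 in stage fits, −0.17 in BM1, −0.12 in BM5, −0.10 in BM6 and −0.10 in BM46, and lowered the share of higher genes among all called to 27.4 to 30.8% in stage fits (40.2 to 49.0% by TMM), 35.2% in BM1 (55.0%), 30.6% in BM5 (51.3%), 36.9% in BM6 (53.0%) and 34.4% in BM46 (51.8%). In BM4 against BM21 the share was 54.1% (38.7% by TMM). The set's median then was −0.09 in BM46 and −0.06 between classes. Shallow libraries limit the values of BM6 and BM24.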
